A study of Rattus norvegicus with 16 samples.

Results

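Axon guidance ligands and receptors steer growing nerve fibres, and they were followed here in adrenal medulla of p27Kip1 mutant and wild-type rats. The 56 genes described are those whose probe sets carry a single symbol of the semaphorin, plexin, neuropilin, ephrin, Eph receptor, Slit, Robo, netrin, Unc5 or Dcc families. They are 56 of the 14217 genes that have such a probe set on the array. They hold 95 probe sets, and each gene is represented by the 1 with the highest mean over all arrays. By role they are 17 semaphorins, 10 plexins and neuropilins, 5 ephrins, 12 Eph receptors, 3 Slits, 3 Robos, 2 netrins and 4 netrin receptors.

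Total RNA was measured on 16 Affymetrix expression arrays of rats on a Sprague–Dawley white eye/Wistar–Kyoto background. The 8 arrays of adrenal medullary hyperplasia came from p27Kip1 mutants aged 2 months, of both labelled sexes. Their reference was 2 pools of wild-type medulla of the same age. Young pool 1 held 2 animals and is labelled male, and young pool 2 held 3 and is labelled female. The 4 pheochromocytomas, tumours of the chromaffin cells that make catecholamines, came from p27Kip1 mutants. They were of 8 months (3 rats, labelled female) and 9 months (1 rat, labelled male). The tumour reference was 2 older wild-type pools of 2 animals each. Older pool 1 was of 10 months and is labelled female. Older pool 2 was of animals of 12 and 17 months and is labelled male. Leaving out an older pool thus also changes the age and labelled sex of the reference. No source used here states the zygosity of the mutants, and the mutation is carried by the whole animal. A pool shows less than the spread between single animals. Tumours and older pools differ in age as well as genotype, so the effects of age and genotype cannot be told apart in that comparison.

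Semaphorins signal through plexins, often with neuropilins as co-receptors. Slits bind Robo receptors and mostly repel axons, and netrin attracts through Dcc and repels through Unc5 receptors. Ephrins are membrane-bound ligands of the Eph receptor kinases. The same families act outside the nervous system in blood vessel growth and tissue patterning, and chromaffin cells share their neural crest origin with sympathetic neurons.

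The deposited values are log2 signals, and each probe set was tested with limma over all 16 arrays and 4 groups. A gene passed when its Benjamini-Hochberg adjusted p over 31042 probe sets was below 0.05. Differences are log2 differences ± standard error (SE), mutant minus wild type unless stated, and levels are log2 values with their SD. The level of a probe set is not compared with that of another probe set. In bulk RNA, fewer cells of a type and less RNA per cell cannot be told apart.

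Chromaffin markers were bright on every array, with Th at 13.81 to 14.28 and Chga at 14.14 to 14.42 across the ranges of the 4 groups. Xist, which is transcribed from an inactive X, went against the labelled sex on 6 arrays, 4 of hyperplasia and the 2 young wild-type pools, and sex was therefore not a term in the fit. The 3′ probe set of the hexokinase control exceeded its 5′ probe set, a measure of RNA integrity, by 1.21 to 1.63 on the hyperplasia arrays, against 1.07 to 1.18 for the young pools. This excess was 2.16 to 3.30 in pheochromocytoma and 2.29 to 2.92 in older wild type, so the 2-month and older arrays also differ in this measure. Its part in the results was not tested.

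Of the 56 genes, 44 lay above each array's first quartile throughout and 4 (Epha3, Epha5, Ntn5 and Robo3) lay below it on every array. For those 4, and for 8 others that were below it on some arrays, signal over background was not shown.

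Slit3, Ntn1, Unc5c, Plxnd1, Plxnb1 and Sema3g were higher in hyperplasia and in pheochromocytoma than in wild-type medulla of the matching age set. They are a secreted repellent, a netrin and a netrin receptor, 2 plexins and a secreted semaphorin. Promoters of 4 of the 6, as tabulated from RefSeq on build GRCr8, are shown because these genes rose together, each with its GC boxes (GGGCGG on either strand, overlapping matches joined) in capitals. For Slit3 and Sema3g the window runs from 250 bases before to 50 after the outermost gene start, and for Plxnd1 and Plxnb1 it begins 269 and 950 bases inside that start. Slit3 lies at chr10:20075679-20075978 (+), Plxnd1 at chr4:150715138-150715437 (-), Plxnb1 at chr8:118622911-118623210 (+) and Sema3g at chr16:6419775-6420074 (+), and each sequence reads 5′ to 3′ on the gene's strand.
Slit3: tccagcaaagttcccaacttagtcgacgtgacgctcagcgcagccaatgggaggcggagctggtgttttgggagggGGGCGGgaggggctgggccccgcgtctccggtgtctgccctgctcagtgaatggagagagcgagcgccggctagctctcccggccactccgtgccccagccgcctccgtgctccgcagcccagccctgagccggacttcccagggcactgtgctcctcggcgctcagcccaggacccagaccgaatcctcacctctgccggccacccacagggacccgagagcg
Plxnd1: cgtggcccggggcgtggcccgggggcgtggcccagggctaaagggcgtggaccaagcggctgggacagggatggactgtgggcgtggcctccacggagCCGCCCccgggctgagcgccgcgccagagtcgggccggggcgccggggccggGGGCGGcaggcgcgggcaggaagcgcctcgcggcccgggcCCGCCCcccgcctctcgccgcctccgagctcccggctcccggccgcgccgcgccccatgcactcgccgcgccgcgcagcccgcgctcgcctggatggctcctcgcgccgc
Plxnb1: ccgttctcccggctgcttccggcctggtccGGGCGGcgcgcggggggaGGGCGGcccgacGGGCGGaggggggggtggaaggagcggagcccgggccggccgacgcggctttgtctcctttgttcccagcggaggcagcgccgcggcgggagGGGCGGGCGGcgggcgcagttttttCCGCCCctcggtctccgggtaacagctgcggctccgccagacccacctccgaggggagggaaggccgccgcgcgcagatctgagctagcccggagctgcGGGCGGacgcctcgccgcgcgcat
Sema3g: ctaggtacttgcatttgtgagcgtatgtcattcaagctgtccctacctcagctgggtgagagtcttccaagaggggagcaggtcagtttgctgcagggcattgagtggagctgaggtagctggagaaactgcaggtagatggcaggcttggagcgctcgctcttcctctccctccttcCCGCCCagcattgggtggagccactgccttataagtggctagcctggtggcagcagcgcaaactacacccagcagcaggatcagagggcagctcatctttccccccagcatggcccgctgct

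The Plxnb1 promoter held 7 GC boxes, that of Plxnd1 3, and those of Slit3 and Sema3g 1 each. A GC box was present in 55.8% of the 43 promoters found for 42 of the 56 guidance genes, and in 33.1% of 33469 rat promoters of the same length. The median GC content was 61.0% for the guidance promoters and 51.7% for all promoters. A TATA box (TATAAA), an E box (CACGTG) and a cAMP response element (TGACGTCA), searched on both strands, had no match in the 4 promoters shown. Over all rat promoters 14.2% held the TATA box, 6.4% the E box and 1.8% the cAMP response element. A match in letters is a description only.

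The first comparison asks which guidance genes hyperplasia changes relative to wild-type medulla of the same age. Of the 56 genes 8 rose, 2 fell and 46 did not pass. That is 17.9% of the guidance genes, beside 8.89% of all 14217 genes. In the upward direction it is 14.3%, beside 5.42% of all genes, and in the downward direction 3.57%, beside 3.47%. The median difference was -0.01 for the guidance genes and -0.01 for all genes, and the median absolute difference was 0.25 for the guidance genes and 0.17 for all genes. Hyperplasia and young wild type did not overlap for 20 of the 56 genes (35.7%), the 10 that passed among them, beside 23.6% of all genes.

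The second comparison asks the same of pheochromocytoma and older wild-type medulla. Here 9 of 56 genes rose, 2 fell and 45 did not pass. Together they are 19.6% of the guidance genes, beside 16.8% of all genes. The share that rose was 16.1%, beside 9.66%, and the share that fell 3.57%, beside 7.1%. The median difference was 0 for the guidance genes and 0 for all genes, and the median absolute difference was 0.22 for both. Tumours and older pools did not overlap for 22 of the 56 genes (39.3%), the 11 that passed among them, beside 42.3% of all genes, so a lack of overlap was common against 2 pools.

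The 6 genes that rose in both comparisons are 60% of the 10 genes called in hyperplasia and 54.5% of the 11 called in pheochromocytoma. Over all genes the overlap was 705, which is 55.8% of those called in hyperplasia and 29.6% of those called in pheochromocytoma. These comparisons share no arrays, but they use the same estimate of the spread for each probe set.

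**Figure D1:**
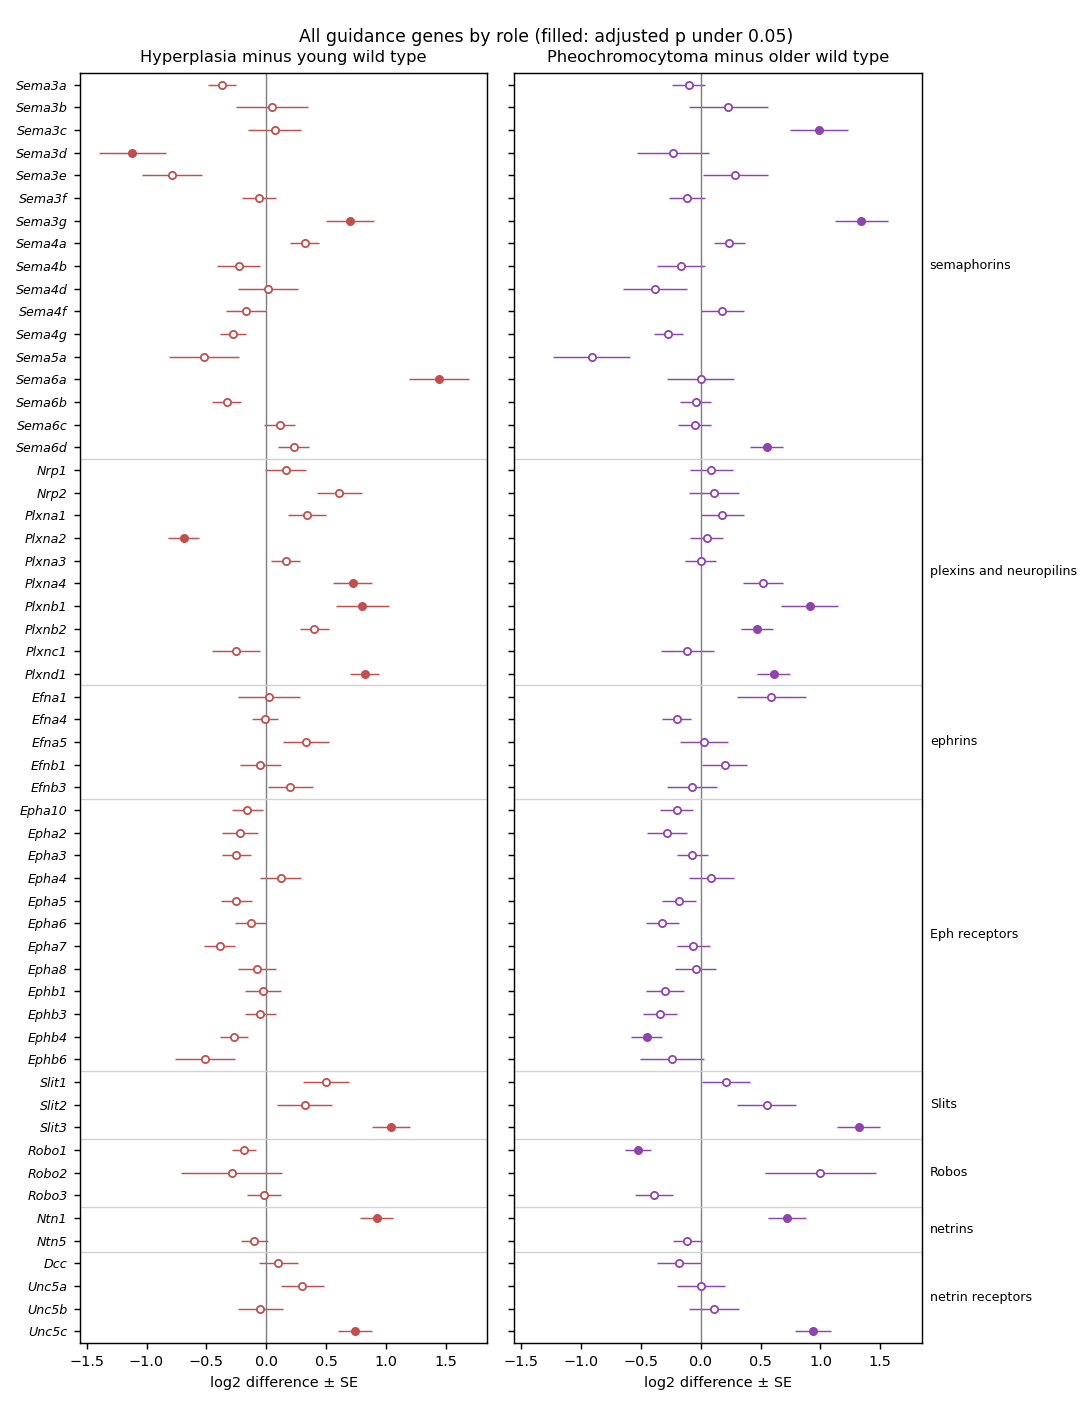
Log2 difference (horizontal axis, ± SE) of each of the 56 guidance genes, grouped by role, in hyperplasia against young wild type (left) and pheochromocytoma against older wild type (right); filled points passed at adjusted p below 0.05. Slit3, Ntn1, Unc5c, Plxnd1, Plxnb1 and Sema3g are filled and right of 0 in both panels.

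Slit3 codes for a secreted ligand of Robo receptors. On the 8 hyperplasia arrays it lay between 9.58 and 10.05 with a median of 9.97, against 9.05 and 8.68 in the young pools. Every hyperplasia array was above both pools, by 1.04 ± 0.16 on average, a 2.06-fold difference (adjusted p = 0.0014). In the 4 tumours it was 8.89, 9.49, 9.43 and 9.05, against 7.99 and 7.80 in the older pools. All tumours were higher than both pools, and the difference of 1.32 ± 0.18 (2.5-fold, adjusted p = 0.000398) had the smallest adjusted p in that comparison among the probe sets that represent the guidance genes. Slit3 passed without either older pool, and missed the threshold in hyperplasia without young pool 2, at 0.86 (adjusted p = 0.055).

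The other Slits did not pass. Slit1 differed by 0.50 ± 0.19 in hyperplasia (adjusted p = 0.12) and 0.21 ± 0.20 in pheochromocytoma (adjusted p = 0.522). Slit2 differed by 0.32 ± 0.23 in hyperplasia (adjusted p = 0.457) and by 0.55 ± 0.25 in the tumours (adjusted p = 0.163). Another Slit2 probe set, at a mean of 3.02, fell by 0.42 in hyperplasia (adjusted p = 0.0331), at a level where signal over background was not shown.

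No Robo gene measured here passed as higher in either comparison. Robo1 was 5.77, 5.98, 5.99 and 5.68 in the tumours, against 6.28 and 6.48 in the older pools. The tumours were all lower, by -0.52 ± 0.11 (adjusted p = 0.00752). In hyperplasia Robo1 lay between 6.85 and 7.14 with a median of 7.01, against 7.22 and 7.18 in young wild type, a difference of -0.19 ± 0.10 that did not pass (adjusted p = 0.292). Without older pool 2 the tumour difference was -0.42 (adjusted p = 0.156).

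Robo2 was the most variable guidance gene within hyperplasia, with an SD of 0.75, against a median SD of 0.20 over the 56 genes. It lay between 5.12 and 7.35 with a median of 6.49 on the hyperplasia arrays, against 6.99 and 6.42 in the young pools, and these ranges overlap (adjusted p = 0.74). In the tumours it was 6.60, 6.23, 6.88 and 6.41, against 5.64 and 5.41 in the older pools. The tumours and older pools did not overlap, but the difference of 1.00 ± 0.46 did not pass (adjusted p = 0.156). Robo3 was dim on every array and did not pass in either comparison.

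Ntn1, the netrin that guides commissural axons, was between 8.53 and 9.11 in hyperplasia with a median of 8.94, against 7.97 and 7.98 in young wild type. The groups were far apart relative to the SD of 0.21 in hyperplasia (n = 8), with a difference of 0.92 ± 0.14 (1.89-fold, adjusted p = 0.00143). Tumour values were 8.98, 9.34, 8.98 and 9.06, against 8.36 and 8.37 in the older pools, a difference of 0.72 ± 0.16 (adjusted p = 0.00695). Hyperplasia kept its call whichever array was left out, and the tumour call was lost without older pool 2 (adjusted p = 0.0886). The other 2 Ntn1 probe sets had means of 4.47 and 4.81, close to the array first quartiles of 4.71 to 4.93, and did not pass. Ntn5 was dim on every array and did not pass.

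Unc5c is a receptor for netrins in repulsion. It lay between 9.51 and 10.15 in hyperplasia with a median of 9.93, against 9.24 and 9.02 in young wild type. The difference was 0.74 ± 0.14 (adjusted p = 0.00478). In pheochromocytoma it was 10.26, 10.31, 10.08 and 10.33, against 9.19 and 9.43 in older wild type. All tumours were above both pools, and the difference was 0.94 ± 0.15 (1.91-fold, adjusted p = 0.00132). A second Unc5c probe set differed by 0.59 in hyperplasia (adjusted p = 0.156) and 1.01 in the tumours (adjusted p = 0.0193). Without young pool 2 the hyperplasia difference of the first was 0.63 (adjusted p = 0.113).

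The other netrin receptors, Unc5a, Unc5b and Dcc, did not pass in either comparison. Their differences were between -0.05 and 0.30 in hyperplasia and between -0.18 and 0.11 in pheochromocytoma.

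**Figure D2:**
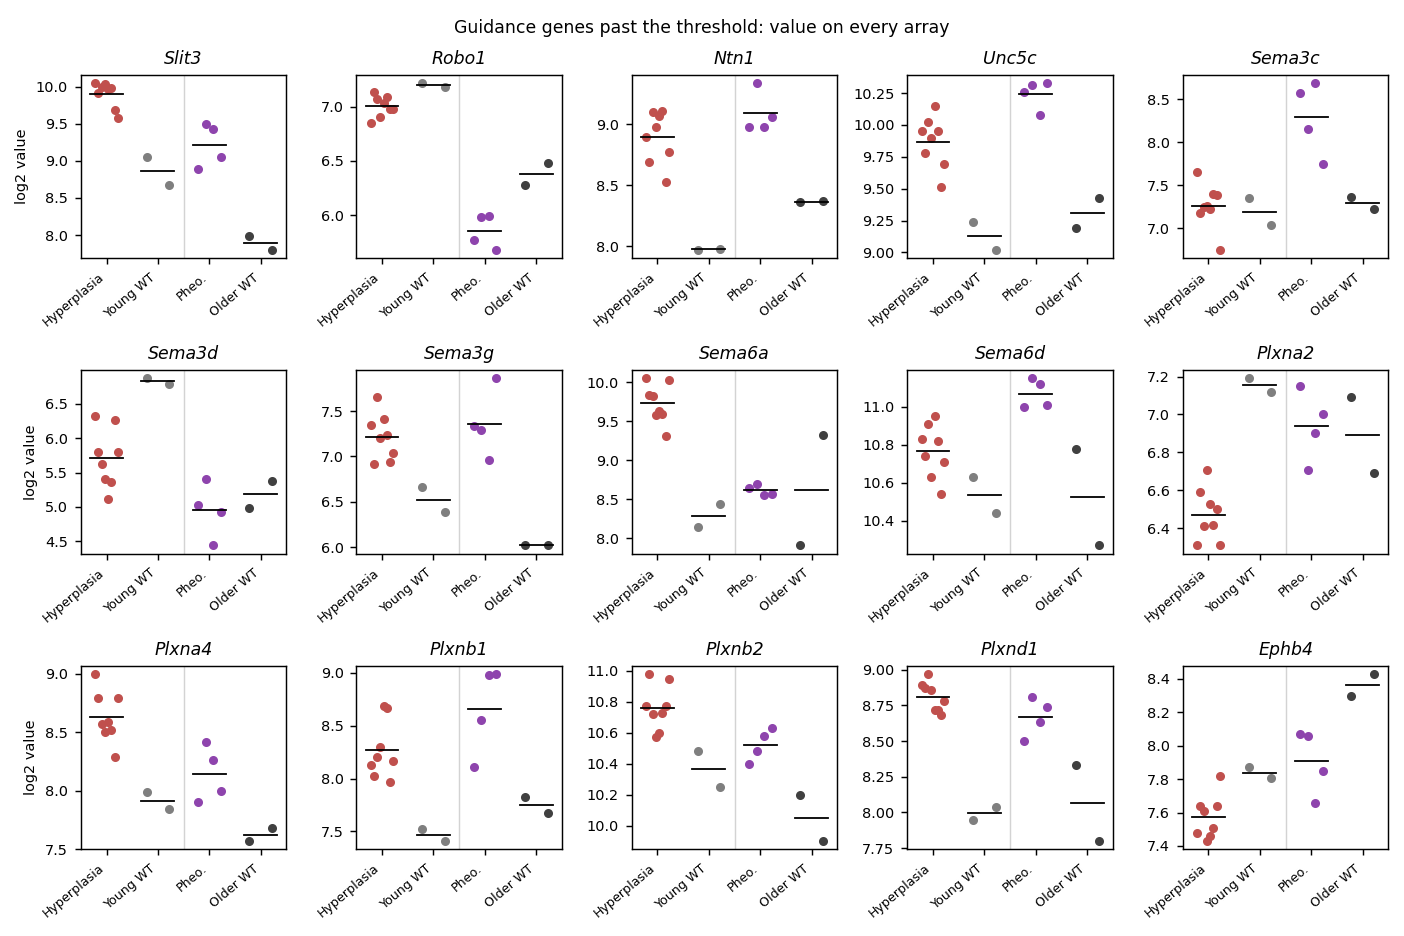
Log2 value (vertical axis, its own range in each panel) of the 15 guidance genes past the threshold in hyperplasia or pheochromocytoma, 1 point per array and a line at each group mean, for hyperplasia (8), young wild type (2), pheochromocytoma (4) and older wild type (2). The Slit3 and Ntn1 mutant points all lie above their wild-type pools, while the older pools of Sema6a lie on either side of the tumours.

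Among the 17 semaphorins 2 rose and 1 fell in hyperplasia, and 3 rose and 0 fell in pheochromocytoma. Sema3g, a secreted semaphorin of blood vessels, lay between 6.92 and 7.66 in hyperplasia with a median of 7.22, against 6.66 and 6.39 in young wild type. The difference of 0.70 ± 0.20 passed narrowly (adjusted p = 0.0456), and 11 of the 16 fits that leave out 1 array lost the call. The tumours were at 7.34, 7.29, 6.96 and 7.86, against 6.02 and 6.03 in the older pools. There the difference of 1.34 ± 0.22 (2.52-fold, adjusted p = 0.00138) held whichever array was left out. A second Sema3g probe set differed by 0.33 in hyperplasia (adjusted p = 0.0516) and by -0.20 in the tumours (adjusted p = 0.227), so the probe sets of this gene differ in sign in the tumours. The mean of 11 endothelial markers overlapped between the groups in both comparisons. It was 8.26 to 8.60 in hyperplasia, against 8.48 and 8.55 in the young pools. In pheochromocytoma it was 8.34 to 9.06, against 8.45 to 8.48 in older wild type. Of the 11 markers 0 passed in hyperplasia and 1 in the tumours, Tek at -0.65 (adjusted p = 0.0288). The part of these markers was not tested.

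Sema6a, a transmembrane semaphorin that binds A-type plexins, had the largest difference of a guidance gene in hyperplasia. It lay between 9.31 and 10.05 with a median of 9.73, against 8.14 and 8.44 in young wild type. All 8 hyperplasia arrays were above both pools, by 1.44 ± 0.25 (2.72-fold, adjusted p = 0.00283). Without young pool 1 it was 1.29 (adjusted p = 0.0571). A second Sema6a probe set rose by 0.66 ± 0.16 (adjusted p = 0.0193), and the other 3 did not pass.

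In the tumours Sema6a was 8.65, 8.70, 8.56 and 8.57, against 7.91 and 9.32 in older wild type. The tumours lay close together and between the pools, so the difference of 0.00 ± 0.28 (adjusted p = 0.998) rests on pools that disagree. The effect in tumours minus that in hyperplasia was -1.44 and did not pass (adjusted p = 0.188). Without older pool 1 it was -2.15, with older pool 2, at 9.32, as the only reference for the tumours. Older pool 1, at 7.91, lay below every tumour, and the effect without older pool 2 is not given here.

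Sema3d was the semaphorin that fell in hyperplasia. It lay between 5.12 and 6.33 with a median of 5.71, against 6.87 and 6.79 in young wild type. The difference was -1.12 ± 0.28 (adjusted p = 0.0222). In pheochromocytoma it was 5.03, 5.41, 4.44 and 4.93, against 4.99 and 5.38 in older wild type, where the groups overlap (adjusted p = 0.653). The hyperplasia call was lost without young pool 1 (adjusted p = 0.15) and without young pool 2 (adjusted p = 0.156).

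Sema3c, a secreted semaphorin known for its role in neural crest migration to the heart, rose in the tumours. Their values were 8.57, 8.15, 8.69 and 7.75, against 7.37 and 7.23 in the older pools, a difference of 0.99 ± 0.24 (1.99-fold, adjusted p = 0.0114). In hyperplasia it lay between 6.75 and 7.65 with a median of 7.25, against 7.35 and 7.04 in young wild type, and the groups overlap (adjusted p = 0.893). The difference between these effects, 0.92, did not pass (adjusted p = 0.302). Without older pool 2 the tumour difference was 0.92 (adjusted p = 0.148).

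Sema6d, a transmembrane semaphorin, was 11.00, 11.15, 11.12 and 11.01 in the tumours, against 10.78 and 10.27 in older wild type. The difference was 0.55 ± 0.14 (adjusted p = 0.0174), and it was 0.29 without older pool 2 (adjusted p = 0.372). Hyperplasia lay between 10.54 and 10.95 with a median of 10.78, against 10.63 and 10.44 in young wild type (adjusted p = 0.304).

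The semaphorins that did not pass in hyperplasia differed by -0.79 to 0.32, and those that did not pass in pheochromocytoma by -0.91 to 0.29. The ends of those ranges are Sema3e at -0.79 ± 0.25 in hyperplasia (adjusted p = 0.0618) and Sema5a at -0.91 ± 0.32 in the tumours (adjusted p = 0.0639). Sema4a differed by 0.32 ± 0.12 in hyperplasia and 0.24 ± 0.13 in pheochromocytoma, and Sema4b by -0.23 ± 0.18 and -0.16 ± 0.20.

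Plexins are the semaphorin receptors. Of 10 plexins and neuropilins 3 rose and 1 fell in hyperplasia, and 3 rose and 0 fell in pheochromocytoma. Plxnd1, the receptor of Sema3e and a plexin of endothelium and of some neurons, lay between 8.68 and 8.97 in hyperplasia with a median of 8.82, against 7.95 and 8.04 in young wild type. Its range in hyperplasia was narrow (SD 0.10, n = 8), and the difference of 0.82 ± 0.12 had the smallest adjusted p in hyperplasia among the probe sets that represent the guidance genes (1.76-fold, adjusted p = 0.00119) and held whichever array was left out. In the tumours it was 8.50, 8.81, 8.63 and 8.74, against 8.33 and 7.80 in the older pools, a difference of 0.61 ± 0.14 (adjusted p = 0.00837). Without older pool 2 that difference was 0.34 (adjusted p = 0.249).

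Plxnb1, a receptor of Sema4d, lay between 7.97 and 8.69 in hyperplasia with a median of 8.18, against 7.52 and 7.41 in young wild type. The difference was 0.80 ± 0.22 (adjusted p = 0.033) and was lost without young pool 1 (adjusted p = 0.141) and without young pool 2 (adjusted p = 0.25). Tumour values of 8.11, 8.55, 8.98 and 8.99, against 7.83 and 7.67 in older wild type, gave a difference of 0.91 ± 0.24 (adjusted p = 0.0182), lost without older pool 2 (adjusted p = 0.195). The other 2 Plxnb1 probe sets did not pass, with 0.68 and 0.06 in hyperplasia and 0.72 and 0.25 in the tumours. Its ligand gene Sema4d differed by 0.01 ± 0.25 in hyperplasia and -0.38 ± 0.27 in pheochromocytoma, and neither passed. Sema4d lay below the first quartile on 8 arrays, so its signal over background was not shown.

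Plxnb2 belongs to the same subfamily. It was 10.40, 10.48, 10.58 and 10.63 in the tumours, against 10.20 and 9.90 in older wild type, a difference of 0.47 ± 0.13 (adjusted p = 0.0266) that was 0.32 without older pool 2 (adjusted p = 0.35). Hyperplasia lay between 10.57 and 10.98 with a median of 10.75, against 10.48 and 10.25 in young wild type. That difference of 0.40 ± 0.12 did not pass (adjusted p = 0.0566), although the groups did not overlap.

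The A-type plexins went both ways. Plxna4 lay between 8.29 and 9.00 in hyperplasia with a median of 8.58, against 7.99 and 7.84 in young wild type, and rose by 0.72 ± 0.16 (adjusted p = 0.0126). It was 7.90, 8.42, 8.26 and 8.00 in the tumours, against 7.57 and 7.68 in older wild type, a difference of 0.52 ± 0.17 (adjusted p = 0.0557). A second Plxna4 probe set rose by 0.70 ± 0.13 in hyperplasia (adjusted p = 0.00475) and by 1.13 ± 0.14 in the tumours (adjusted p = 0.000285), so the tumour call depends on the probe set. In hyperplasia the first lost its call without young pool 1 (adjusted p = 0.0674) and without young pool 2 (adjusted p = 0.165).

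Plxna2 fell in hyperplasia. It lay between 6.31 and 6.71 with a median of 6.46, against 7.19 and 7.12 in young wild type, a difference of -0.69 ± 0.13 (adjusted p = 0.00529). A second probe set fell by 0.61 (adjusted p = 0.016), and the third did not pass. In the tumours it was 7.15, 6.71, 6.90 and 7.00, against 7.09 and 6.69 in older wild type, and the groups overlap (adjusted p = 0.863). The difference between the effects, 0.73, did not pass (adjusted p = 0.196). It was 0.93 without older pool 1, with older pool 2, at 6.69, as the only reference for the tumours. The effect without older pool 2 is not given here. The hyperplasia call was lost without young pool 1 (adjusted p = 0.0677) and without young pool 2 (adjusted p = 0.0586).

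Plxna1 and Plxna3 did not pass, nor did the neuropilins. Nrp1, a co-receptor of class 3 semaphorins, differed by 0.16 ± 0.17 in hyperplasia and 0.09 ± 0.18 in pheochromocytoma, and Nrp2 by 0.61 ± 0.19 (adjusted p = 0.0679) and 0.11 ± 0.21. A second Plxnc1 probe set fell by 0.76 in hyperplasia (adjusted p = 0.0116) and by 0.73 in the tumours (adjusted p = 0.0154), while its brightest differed by -0.25 and -0.11 and did not pass. In the tumours a second Plxna3 probe set fell by 0.39 (adjusted p = 0.0154), beside 0.00 for the brightest.

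Ephrins and Eph receptors had few calls. Of 5 ephrins 0 passed in limma in either comparison, with differences of -0.05 to 0.33 in hyperplasia and -0.20 to 0.59 in pheochromocytoma. Efna1 is the upper end in the tumours at 0.59 ± 0.29 (adjusted p = 0.181), and Efna5 the upper end in hyperplasia at 0.33 ± 0.19 (adjusted p = 0.305). Over the 56 genes 20 had an unadjusted p below 0.05 in limma in hyperplasia and 19 in pheochromocytoma. The share of all genes at that threshold was not counted, so these counts are not read as a trait of the guidance genes.

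By their brightest probe sets, 0 of 12 Eph receptors passed in hyperplasia, and Ephb4 alone passed in pheochromocytoma. Another Epha3 probe set, at a mean of 3.31, was at -0.41 in hyperplasia (adjusted p = 0.0485). Signal over background was not shown at that level. Ephb4, a receptor of veins, was 8.07, 8.06, 7.66 and 7.85 in the tumours, against 8.30 and 8.43 in older wild type, a difference of -0.45 ± 0.13 (adjusted p = 0.0301). All tumours were lower than both pools, but the call was lost without older pool 1 (adjusted p = 0.0537) and without older pool 2 (adjusted p = 0.269). In hyperplasia it lay between 7.43 and 7.82 with a median of 7.56, against 7.87 and 7.81 in young wild type (-0.27 ± 0.12, adjusted p = 0.191).

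Differences of the Eph receptors were below 0 for 11 of 12 in hyperplasia, with a median of -0.19, and for 11 of 12 in pheochromocytoma, with a median of -0.22. Epha4, which binds ephrins of either class, was the receptor above 0, at 0.12 ± 0.17 and 0.09 ± 0.19. After quantile normalization the differences were below 0 for 10 and 9 of 12. With the per-array mean of adrenal cortex markers as a covariate, 10 of 12 were below 0 in hyperplasia, with a median of -0.13. In pheochromocytoma 8 of 12 were below 0 with that covariate, with a median of -0.06. Of the 12, Epha3 and Epha5 were dim on every array and Epha6, Epha7, Epha8 and Epha10 on some.

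The means of some cell type marker lists did not overlap between mutant and wild type, the cortex list in both comparisons. The mean of 11 adrenal cortex markers was 9.96 to 10.72 on the hyperplasia arrays, against 10.99 and 11.20 in the young pools, and 3 of the 11 fell. In the other pair it was 9.82 to 11.04 in pheochromocytoma and 11.33 to 11.61 in older wild type, and 8 of the 11 fell. In the tumours the mean of 12 chromaffin markers was 12.49 to 12.81, against 11.95 to 12.45 in older wild type, and 5 of 12 rose. The mean of 11 fibroblast and pericyte markers was 8.84 to 9.41 in tumours, against 8.62 to 8.68 in older wild type, with 2 of 11 higher, Rgs5 and Thy1. The 8 Schwann and sustentacular markers averaged 6.81 to 6.96 in tumours and 6.71 to 6.80 in older wild type, with 3 higher and 1 lower. The 5 adipocyte markers averaged 4.17 to 4.50 in tumours and 4.53 to 5.42 in older wild type, with 2 of 5 lower. Of these 5 markers, 2 lay below the first quartile on every array. In hyperplasia the means of the last 4 lists overlapped those of young wild type. Macrophage and red blood cell means overlapped in both comparisons. The part of the chromaffin, fibroblast, Schwann and adipocyte markers was not tested.

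When the per-array cortex mean entered the fit, 4 guidance genes passed in hyperplasia, Sema6a (1.57), Slit3 (0.85), Ntn1 (0.75) and Plxnd1 (0.66). The differences of Plxnb1 (0.42) and Sema3g (0.27) were smaller by over 1.5 times, and the other 8 kept a difference within that factor. In pheochromocytoma 0 of 11 passed in limma with the covariate, where 131 probe sets passed in all. There Slit3 was at 1.05 ± 0.24 (adjusted p = 0.072), Unc5c at 0.72 ± 0.21 (adjusted p = 0.15) and Sema3c at 1.13 ± 0.34 (adjusted p = 0.167), while Sema3g (0.73), Plxnb1 (0.36), Plxnd1 (0.38) and Ephb4 (-0.23) were smaller by over 1.5 times.

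**Figure D3:**
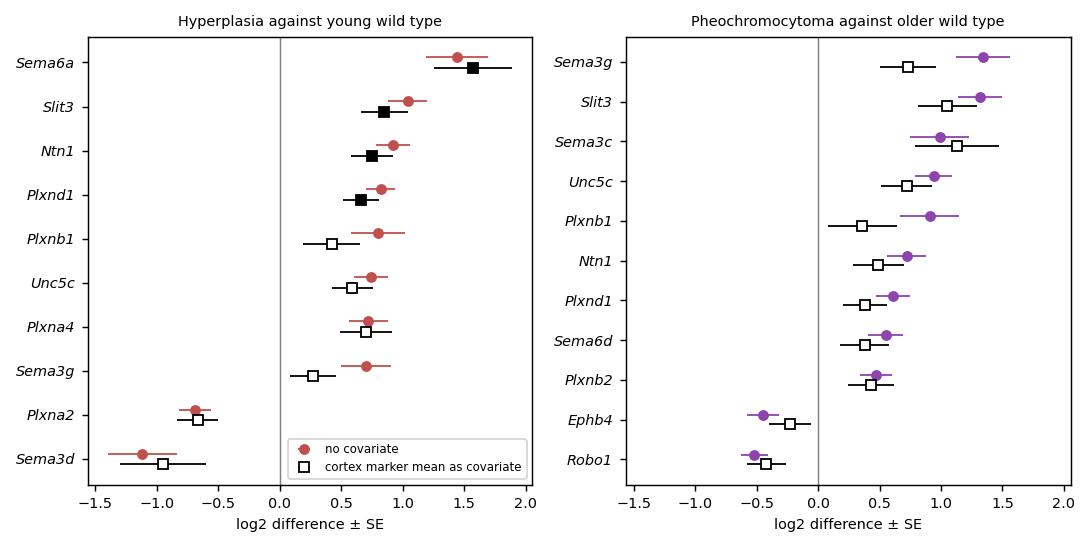
Log2 difference (horizontal axis, ± SE) of the guidance genes called in hyperplasia against young wild type (left, 10 genes) and pheochromocytoma against older wild type (right, 11 genes), without a covariate (circles) and with adrenal cortex markers, averaged per array, as covariate (squares, filled where adjusted p stayed below 0.05). Every gene keeps its sign in both fits, and 4 squares are filled on the left and 0 on the right.

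The difference between the tumour effect and the hyperplasia effect passed for 0 of 56 guidance genes in limma, beside 0.0141% of all genes. An unadjusted p below 0.05 was reached by 7, and the share of all genes at that threshold was not counted. Under each of the alternatives over all 16 arrays the count was 0. Without older pool 1, which leaves 1 pool as reference for the tumours, the difference was -2.15 for Sema6a and 0.93 for Plxna2. A p that misses the threshold does not show that the effects were alike.

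Pheochromocytoma was also set against hyperplasia, a comparison in which tumour stage and age cannot be told apart. Of the 56 genes 11 were higher and 12 lower in the tumours, 41.1% in all, beside 35.8% of all genes. The higher ones were 19.6%, beside 15.7%, and the lower ones 21.4%, beside 20.2%. Sema3c was 1.03 ± 0.17 higher in tumours (adjusted p = 0.000126), and Sema6b was 0.57 ± 0.09 higher (adjusted p = 0.000116). Sema6a was lower in tumours by -1.11 ± 0.19 (adjusted p = 0.000255). The Unc5c probe sets went opposite ways here, at 0.38 for the brightest (adjusted p = 0.0103) and -0.66 for the other (adjusted p = 0.00965). Dcc, a netrin receptor, was lower by -0.54 ± 0.13 (adjusted p = 0.00241), though it was dim on 15 arrays, and Slit1 by -0.53 ± 0.14 (adjusted p = 0.00757). Plxna1, Nrp2 and Epha10 were lower as well, by -0.49, -0.43 and -0.27, and Sema3e, Plxnc1 and Epha2 higher, by 0.66, 0.56 and 0.47.

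Older wild type differed from young wild type for 9 guidance genes, 3 higher and 6 lower, which is 16.1%, beside 21.5% of all genes. The higher ones were 5.36%, beside 8.58%, and the lower ones 10.7%, beside 12.9%. Of these 9, 8 also passed in the same direction between pheochromocytoma and hyperplasia, a comparison on other arrays with the same estimate of the spread. They are 88.9% of the 9 and 34.8% of the 23 called there. Over all genes the shares were 72% and 43.3%. Lower in the older group of both pairs were Unc5a, Robo1, Sema3d, Slit3 and Epha4, and higher were Efna4, Epha6 and Ephb4.

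Unc5a, a netrin receptor, was 6.30, 6.53, 6.68 and 6.44 in tumours, against 7.32 to 8.14 in hyperplasia with a median of 7.89. It was 6.79 and 6.18 in older wild type, against 7.70 and 7.46 in young wild type. The difference was -1.39 ± 0.14 between the mutant groups (adjusted p = 1.27e-06) and -1.10 ± 0.23 between the wild types (adjusted p = 0.00306), and each older value lay below each value of 2-month animals.

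Robo1 was lower by -1.15 ± 0.08 in tumours than in hyperplasia (adjusted p = 2.1e-08) and by -0.82 ± 0.13 in older than in young wild type (adjusted p = 0.000374). Slit3, its ligand gene, was lower by -0.69 ± 0.13 (adjusted p = 0.000359) and -0.97 ± 0.20 (adjusted p = 0.00299) in the same comparisons. Slit3 was thus lower in the older group of each pair, while it was higher in mutant than in wild-type tissue in both main comparisons. Epha4 was lower by -0.67 ± 0.13 (adjusted p = 0.00069) and -0.64 ± 0.21 (adjusted p = 0.04). Another Epha4 probe set, at a mean of 10.61, did not pass, at -0.20 (adjusted p = 0.149) and -0.22 (adjusted p = 0.39). Its remaining probe sets passed in both, at -1.46 and -1.09, and at -0.80 and -0.91. The brightest Efna1 probe set passed between the wild types alone, at -0.96 ± 0.33 (adjusted p = 0.0442). Between the mutant groups it was at -0.39 (adjusted p = 0.132) and did not pass. The other Efna1 probe set, at a mean of 6.6, passed in both comparisons. It was at -0.996 between the mutant groups (adjusted p = 5.14e-05) and -1.119 between the wild types (adjusted p = 0.003266). Second probe sets of Nrp1 and Unc5b passed in both comparisons where the brightest did not. That of Nrp1 was at -1.245 between the mutant groups and -1.491 between the wild types, beside 0.01 and 0.07 for the brightest. That of Unc5b was at -1.16 and -1.09, beside -0.20 and -0.37. These age differences thus depend on the probe set. Without older pool 2 the count between the wild types was 3. The hexokinase 3′ excess divides the arrays the same way as age, and its part was not tested.

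**Figure D4:**
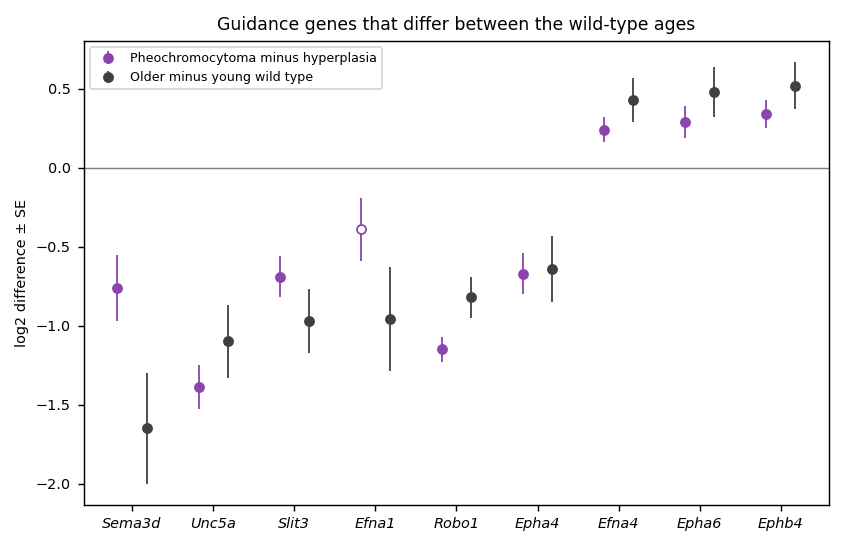
Log2 difference (vertical axis, ± SE) of the 9 guidance genes that passed between older and young wild type (dark), each beside the difference between pheochromocytoma and hyperplasia (purple, open where adjusted p was not below 0.05). The 2 differences of each gene, from its brightest probe set, have the same sign, and only the Efna1 point is open.

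Other genes of guidance signalling were taken from 2 lists written for this work, of guidance molecules and of intracellular effectors. The lists were written with earlier results of these data known, so their shares beside all genes are descriptions only. Of 29 measured guidance molecules outside these families, 7 rose, 1 fell and 21 did not pass in hyperplasia. Those called are 27.6%, beside 8.89% of all genes, and the median was 0.16, beside -0.01 for all genes. In pheochromocytoma 4 rose, 2 fell and 23 did not pass, which is 20.7%, beside 16.8% of all genes, with a median of 0.05, beside 0. L1cam, an adhesion molecule of growing axons, was at 9.05 to 10.04 in hyperplasia, against 7.81 to 7.84 in young wild type. It rose by 1.90 ± 0.21 there (3.73-fold, adjusted p = 0.000115). In the tumours it was 9.13 to 9.91, against 7.46 to 7.61 in older wild type, and rose by 2.11 ± 0.23 (4.31-fold, adjusted p = 0.000119).

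Flrt3, a ligand of Unc5 receptors, was 8.12 to 9.01 in hyperplasia, against 6.49 to 6.81 in young wild type (1.98 ± 0.21, adjusted p = 6.68e-05). It was 7.81 to 8.49 in tumours, against 6.90 to 7.30 in older wild type (1.17 ± 0.23, adjusted p = 0.00373). Rgmb, a repulsive guidance molecule that binds the netrin receptor neogenin, rose by 0.97 ± 0.16 in hyperplasia (adjusted p = 0.00206) and by 1.12 ± 0.18 in pheochromocytoma (adjusted p = 0.00102). The chemokine receptor Cxcr4 rose by 1.72 ± 0.28 in hyperplasia (adjusted p = 0.00162) and differed by 0.92 ± 0.30 in the tumours (adjusted p = 0.0515). Ntng1, a membrane-anchored netrin relative, fell by 1.28 in hyperplasia (adjusted p = 0.000133) and by 0.49 in the tumours (adjusted p = 0.0499). Gpc1, a glypican that binds Slits, rose by 0.72 ± 0.13 in hyperplasia (adjusted p = 0.00324) and by 0.45 ± 0.14 in the tumours (adjusted p = 0.0418). With the cortex covariate, 5 of the 8 called in hyperplasia passed (L1cam at 1.60, Flrt3 at 1.77, Ntng1 at -1.15, Gpc1 at 0.81 and Sdc3 at 0.64), and Rgmb (adjusted p = 0.0519) and Cxcr4 (adjusted p = 0.0555) did not. In the tumours L1cam passed at 1.68 (adjusted p = 0.0275) as 1 of 6, while Flrt3 (adjusted p = 0.235) and Rgmb (adjusted p = 0.105) did not.

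Of 53 intracellular effectors 6 rose, 1 fell and 46 did not pass in hyperplasia. Those called are 13.2%, beside 8.89% of all genes, and the median was 0.13, beside -0.01. In pheochromocytoma 13 rose, 3 fell and 37 did not pass, which is 30.2%, beside 16.8% of all genes, with a median of 0.18, beside 0. Rnd1, a GTPase that binds plexins, was 6.00 to 7.31 in hyperplasia, against 4.34 and 5.26 in young wild type, where 1 pool lies below the first quartile of 4.81, and rose by 1.73 ± 0.35 (adjusted p = 0.00776). Ablim1, an actin-binding protein, rose by 0.91 ± 0.21 there (adjusted p = 0.0143). Evl, of the Ena/VASP family of actin regulators, rose by 0.61 ± 0.12 in hyperplasia (adjusted p = 0.00479) and by 1.01 ± 0.13 in the tumours (adjusted p = 0.000244). Rgs3 rose by 0.75 and 1.11, and Vav2, an exchange factor downstream of Eph receptors, by 0.56 and 1.01. Dpysl3, a member of the CRMP family of semaphorin effectors, rose in the tumours by 1.20 ± 0.21 (adjusted p = 0.00221) and differed by 0.08 ± 0.19 in hyperplasia (adjusted p = 0.863). Farp1, a FERM-domain exchange factor that acts with A-type plexins and Sema6a, fell in the tumours by 1.54 (adjusted p = 0.00126). With the cortex covariate each of the 7 effectors called in hyperplasia missed the threshold, Evl most narrowly (0.55, adjusted p = 0.0924), and 2 were smaller by over 1.5 times, Rgs3 at 0.36 and Vav2 at 0.28. Of the 16 called in the tumours Evl alone passed, at 0.92 (adjusted p = 0.0432), and 8 were smaller by over 1.5 times, among them Rgs3 at 0.56, Vav2 at 0.61 and Farp1 at -0.82. Dpysl3 was at 0.94 there (adjusted p = 0.187).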

How the data were processed

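RNA of 16 rat adrenal samples was measured on Affymetrix arrays. The authors deposited log2 values, made with RMA per the submitters' processing notes; its version and which arrays were normalized together are not given in the sources used here. The 57 control probe sets were left out. Symbols came from the platform annotation: 20826 probe sets had 1 symbol, 436 several and 9780 none. All 95 guidance probe sets matched a RefSeq gene by Entrez identifier, with 0 symbols changed. A gene was represented by its brightest probe set.

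The model, fitted in limma 3.58.1 (R 4.3.3), had 4 group levels and 12 residual degrees of freedom, and its moderated two-sided p-values were adjusted by Benjamini-Hochberg over 31042 probe sets. Labelled sex was not a covariate because Xist went against it. Members, lists and tests were chosen with earlier results of these data known. In data simulated with the residual spread of each probe set, 78% of log2 changes of 1 were recovered in hyperplasia and 73% in pheochromocytoma. Genes past the threshold, up to 14 per comparison by size and all past it in both, were named with their array values, with up to 4 others per role by mean signal and up to 5 passing genes per list. The number of arrays limits precision, most of all the 2 pools of each wild-type group.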

Additional observations from a re-analysis of the deposited data

How the results depend on the processing

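Each difference of the guidance genes that passed kept its sign under every alternative run: of 588 refitted differences 506 stayed past the threshold, 82 missed it and 0 changed sign. Many of these signs could not change. Leaving out an array of a group not compared leaves a difference as it was. So does fitting only the arrays compared, changing the prior of the spread or dropping dim probe sets. Of the 10 genes called in hyperplasia, Ntn1 and Plxnd1 passed whichever array was left out, as did Slit3, Unc5c and Sema3g of the 11 called in pheochromocytoma. The counts moved more. In hyperplasia 10 guidance genes (2296 probe sets) passed, against 5 (689) without the 4 arrays whose Xist level went against the label, 6 (556) with the replicate block, 4 (344) with the cortex covariate and 3 to 11 (564 to 2687) with 1 array left out, the lowest without young pool 2 and 5 (910) without young pool 1. In pheochromocytoma 11 (4425) passed, against 6 (1915) with only the arrays compared, 6 (1593) with the replicate block, 0 (131) with the cortex covariate and 3 to 13 (596 to 4781) with 1 array left out, the lowest without older pool 2. For the difference between the effects 0 guidance genes (8 probe sets) passed, with 0 to 2 (0 to 649) when 1 array was left out, the highest without older pool 1, and the probe sets were 1 without the 4 arrays against their label, 14 after quantile normalization, 3 after median centring, 1 with array weights, 0 with the replicate block and 2 with the cortex covariate. Between the wild types 9 (7366) passed, against 5 (3770) with only the arrays compared, 5 with array weights and 3 to 11 (4500 to 7681) with 1 array left out. The cause of these shifts was not tested, beyond the fewer arrays in some fits. Same-numbered samples share only a number: their deviations correlated at -0.18 to 0.21. Averaging the probe sets per gene gives no probe-set count.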

Other observations

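Xist was 11.29 to 11.77 on 4 hyperplasia arrays and 2.86 to 3.88 on the other 4, and the 2 sets crossed the labelled sex. For 13 of the 56 guidance genes, 23.2%, the ranges of these sets did not overlap, beside 17.6% of all genes. Robo2 was 6.56 to 7.35 with Xist and 5.12 to 6.41 without it. Sema3b was 6.24 to 6.36 with Xist and 5.07 to 5.84 without it. Sema5a lay the other way, at 6.80 to 7.10 with Xist and 7.48 to 8.13 without it, as did Sema3d, at 5.12 to 5.63 and 5.80 to 6.33. These sets are not groups of the study, and the differences were not tested.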
